A study of Saccharomyces cerevisiae with 6 samples.

Results

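Transcripts of the amino acid biosynthesis genes of budding yeast were compared between wild type cells and cells lacking VPS1, a dynamin-like GTPase of vacuolar sorting, endocytosis and peroxisome division. The genes were chosen by name as a list of 52, the enzymes of 9 amino acid pathways or branches known as Gcn4-type genes and GCN4 itself, with the strain markers HIS3 and LEU2 left out. Of these, 50 were measured, among 5449 yeast genes in all, and ARG5,6 and TRP1 had no named probe set and are not analysed here. The list was chosen with earlier results of these data known, so its shares beside those of all genes only describe it. Wild type was the haploid strain BY4741, and the deletion strain, which carries the label Y05072, lacks VPS1. Both were grown at 30 degrees in a supplemented minimal medium, and the sources used here do not give which amino acids it held. BY4741 is known to need histidine, leucine, methionine and uracil from the medium, and as the parent background this holds for both groups. Each genotype is a single strain with 3 Affymetrix arrays of total RNA, described in the series design as biologically independent.

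Yeast makes most of its amino acids through dedicated enzyme chains, and the transcription factor Gcn4 activates many of these genes together when any amino acid runs short. Gcn4 itself is known to be controlled mainly at translation of its mRNA, through the kinase Gcn2 and the initiation factor eIF2B, so that its transcript need not follow its activity. Single pathways have further regulators of their own, such as Leu3 for leucine and Lys14 for lysine.

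Levels are log2 values of a gene's probe set after quantile normalization of the 6 arrays, and a difference is vps1 deletion minus wild type on that scale. A gene rose or fell if the moderated test of limma gave a Benjamini-Hochberg adjusted p under 0.05 over all genes, with 3 arrays per strain. The VPS1 transcript was at 10.32, 9.98 and 9.95 in wild type and at 2.54, 2.40 and 2.23 in the deletion strain, below the background level of the arrays (3.53 to 3.59) on each deletion array. All 50 listed genes lay above background on all 6 arrays. Before this normalization most genes lay higher in the deletion group, 5254 of 5449, with a median difference of 0.51 over all genes. Every direction below is thus relative to the other probe sets of the same arrays. Of these 10928 probe sets, 5498 were matched to a yeast gene. Same-numbered arrays of the 2 strains deviated together from their strain means, so a fit that takes the replicate number as a block (the replicate block) is given where it changes a call. This pairing was chosen from these same data, and the calls that the block adds rest on it.

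The listed genes lay mostly lower in the vps1 deletion strain, by small amounts. Of the 50 measured, 6 fell and 0 rose in the limma test, and the 6 were HIS1, HIS4, HIS5 and HIS6 of histidine synthesis, LEU1 of leucine synthesis and ARO1 of the aromatic pathway. The 6 are 12% of the listed genes, where 6.28% of all genes were called lower and 6.77% higher. At an unadjusted limma p under 0.05, 18 listed genes were lower and 0 higher, against 15.5% and 13.4% of all genes. With the replicate block 22 fell, or 44%, against 16.4% of all genes, and 0 rose, against 14.4%. The median difference was -0.24 over the listed genes and -0.04 over all genes, and 45 of the 50 lay below 0, where 56.8% of all genes did. The differences ran from -0.97 for ARG1 to 0.33 for LYS1, and none reached a 2-fold change.

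The call of single genes rested on few arrays. The number of listed genes that fell was 3, 1 and 12 without wild type replicate 1, 2 or 3, and 2, 3 and 2 without vps1 deletion replicate 1, 2 or 3, while their median stayed between -0.32 and -0.15. The calls over all genes changed too. Of all 5449 genes, 342 fell with every array kept, and 355, 129 and 261 without wild type replicate 1, 2 or 3. Without vps1 deletion replicate 1, 2 or 3, 131, 180 and 123 fell. On the deposited values, where most genes lie higher in the deletion group, 0 listed genes fell and 20 were called higher, and 43 of 50 lay above wild type. Of all 5449 genes, 52 were called lower and 4142 higher there, and 5254 lay above wild type. The median difference of the listed genes was 0.29 beside 0.51 for all genes. With each array centred on its median, 8 listed genes fell and 0 rose, beside 535 and 256 of all 5449 genes. The medians were then -0.37 for the listed genes and -0.15 for all genes. The median of the listed genes minus that of all genes was -0.20 on the quantile scale. It was -0.22 both as deposited and with centred arrays, which must share 1 value, since centring takes the same constant from every gene of an array. Leaving out wild type replicate 1 made it -0.11, and leaving out wild type replicate 3 made it -0.28, the widest range over single arrays.

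**Figure D1:**
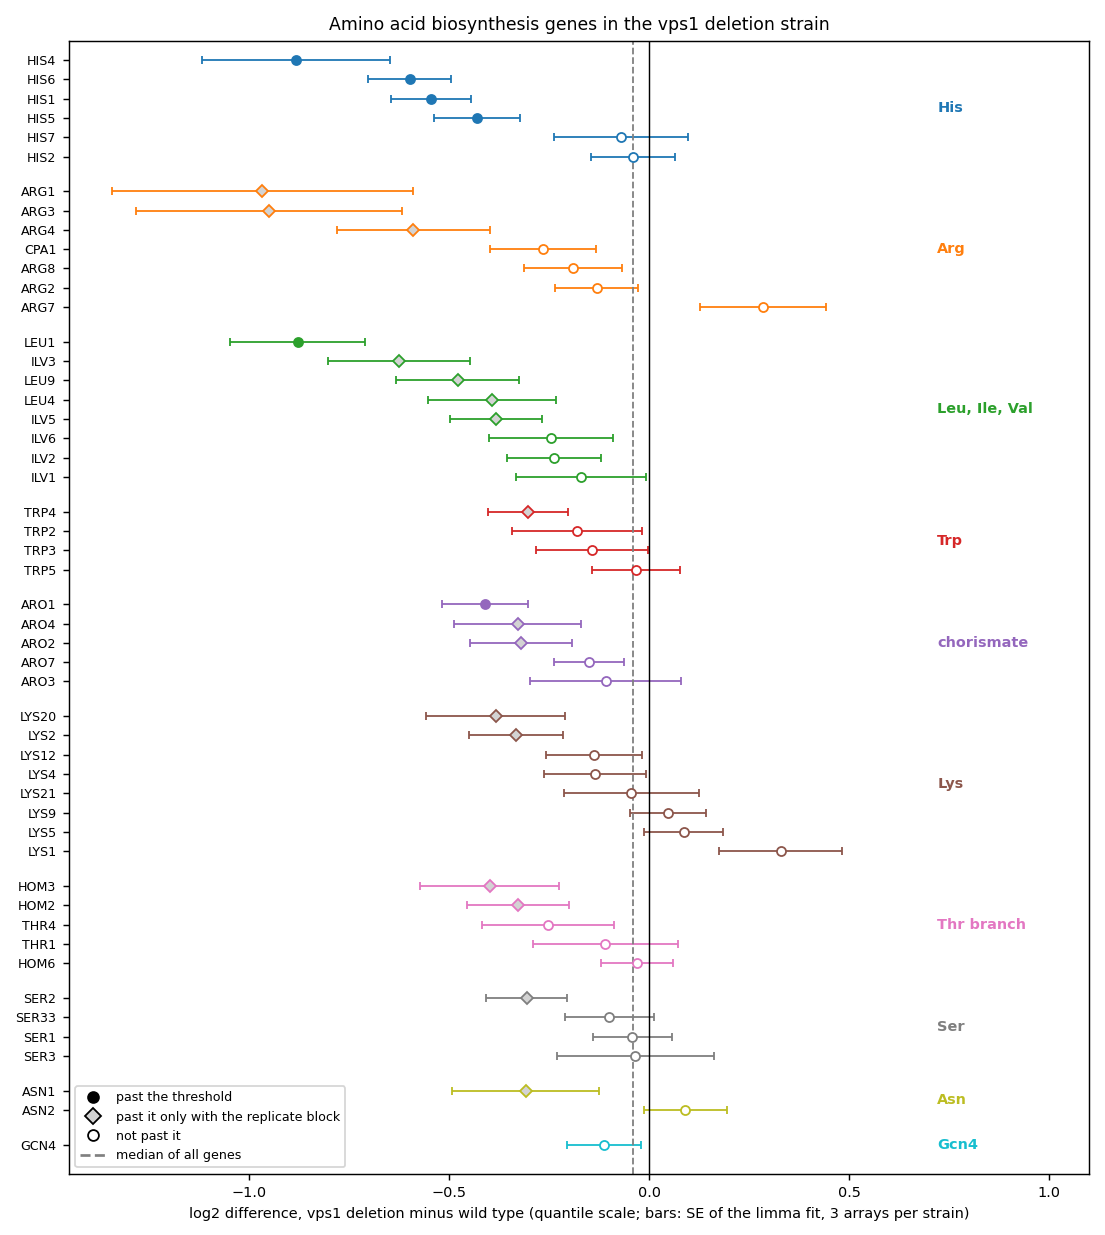
Log2 difference of each of the 50 measured genes (x axis, vps1 deletion minus wild type, quantile scale) with its SE from limma, ordered within each pathway. Filled circles are the 6 genes past the threshold, grey diamonds the 16 that passed it only with the replicate block, and the dashed line is the median of all genes, -0.04.

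Histidine synthesis held most of the calls, with 4 of its 6 measured genes called lower, as were 6.28% of all genes. Its median difference was -0.49. HIS1 (YER055C), the phosphoribosyltransferase of the committing step, was at 12.95, 13.21 and 13.05 in wild type and at 12.47, 12.55 and 12.56 in the deletion strain. It fell by 0.55 ± 0.10 (log2, SE), with an adjusted p of 0.0128 in limma, and on the deposited values it lay 0.011 above wild type. HIS6 (YIL020C), an isomerase in the middle of the chain, was at 9.63, 9.44 and 9.52 in wild type and at 9.03, 8.79 and 8.97 in the deletion strain. The groups did not overlap, and HIS6 fell by 0.60 ± 0.10 (adjusted p = 0.0107 in limma). Its call was kept without any single array, at adjusted p up to 0.0455, which held for none of the other 5 genes that fell. On the deposited values its difference was -0.048 and was not called.

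HIS4 (YCL030C), a multifunctional enzyme that includes the last step of the pathway, was at 11.91, 11.84 and 11.16 in wild type and at 10.96, 10.92 and 10.37 in the deletion strain. Replicate 3 was the lowest array in both strains, and still the groups did not overlap. HIS4 fell by 0.88 ± 0.24, at an adjusted p of 0.0494 in limma, and was at -0.35, not called, on the deposited values. HIS5 (YIL116W), the aminotransferase near the end of the chain, was at 10.34, 10.34 and 10.07 in wild type and at 9.85, 9.87 and 9.75 in the deletion strain. It fell by 0.43 ± 0.11 (adjusted p = 0.0408 in limma), and lay 0.11 above wild type on the deposited values. HIS7, the cyclase of the pathway, and HIS2, the histidinol phosphatase, differed by -0.07 ± 0.17 and -0.04 ± 0.11, and their groups overlapped.

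Leaving out arrays ended several of these calls. The adjusted p of HIS1 was 0.0523 when wild type replicate 2 was left out (limma), and 0.0643 and 0.0540 without vps1 deletion replicate 1 or 3. HIS4 passed without wild type replicate 3 and had adjusted p of 0.0799 and 0.153 without wild type replicate 1 or 2, and of 0.0833, 0.0861 and 0.150 without vps1 deletion replicate 1, 2 or 3. HIS5 likewise passed without wild type replicate 3, and had 0.0684, 0.140, 0.113, 0.0830 and 0.146 without the others in the same order. HIS3, left out of the list because its locus is altered in this background, was at 11.06, 10.71 and 10.57 in wild type and at 10.80, 10.47 and 10.61 in the deletion strain. Its difference of -0.15 ± 0.15 did not pass.

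**Figure D2:**
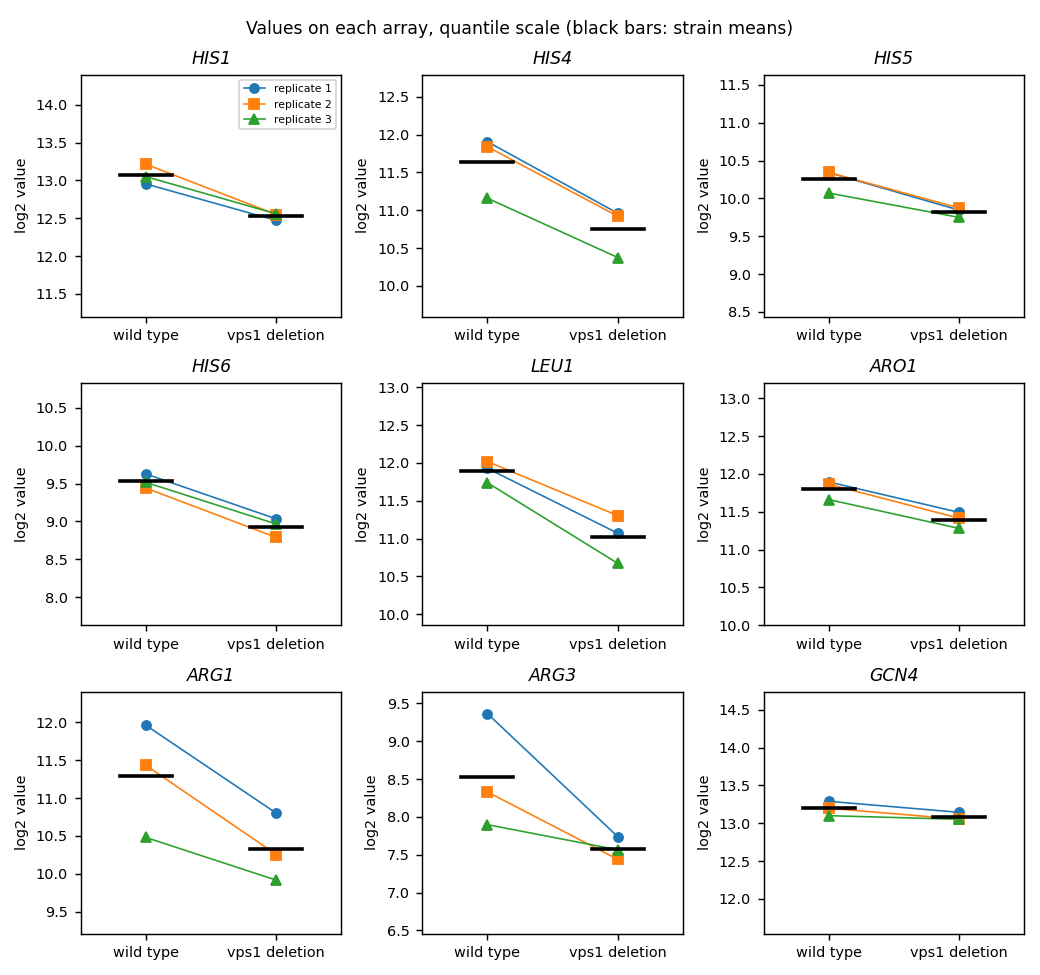
Log2 values (y axis, quantile scale) on each array in wild type and the vps1 deletion strain for the 6 genes that fell, for ARG1 and ARG3 and for GCN4. Lines join arrays of the same replicate number and black bars are strain means. Every line slopes down, those of GCN4 included, and the 3 ARG1 and ARG3 wild type arrays lie far apart.

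The leucine, isoleucine and valine pathway had the next lowest median, -0.39, and all 8 measured genes lay below wild type, 6 of which lay above it as deposited. LEU1 (YGL009C), the isopropylmalate isomerase and an iron-sulphur enzyme, was at 11.93, 12.02 and 11.74 in wild type and at 11.07, 11.30 and 10.67 in the deletion strain. The groups lay well apart, and LEU1 fell by 0.88 ± 0.17 (adjusted p = 0.0149 in limma). Leaving out wild type replicate 2 ended that call (adjusted p = 0.0606), and so did the deposited values, where the difference was -0.36. Of the 8 listed genes LEU1 alone passed, and with the replicate block 5 did, where 6.28% and 16.4% of all genes fell.

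ILV3 (YJR016C), the dihydroxyacid dehydratase and also an iron-sulphur enzyme, was at 12.65, 12.53 and 12.04 in wild type and at 11.97, 11.77 and 11.60 in the deletion strain. Its difference of -0.63 ± 0.18 missed the threshold (adjusted p = 0.0585 in limma) and passed with the replicate block (0.00314), with centred arrays (0.0319) and without wild type replicate 3 (0.0199). ILV5, the reductoisomerase, differed by -0.38 ± 0.12, and passed in the blocked fit (0.0161), without wild type replicate 3 (0.0447) and with limma's trended robust spread (0.0418). Without any other single array neither ILV3 nor ILV5 passed, at adjusted p of 0.0851 to 0.187 and 0.121 to 0.198 in limma. The shared first enzyme, acetolactate synthase, differed less, with -0.24 ± 0.12 for its catalytic gene ILV2 and -0.25 ± 0.16 for its regulatory gene ILV6. ILV1, the threonine deaminase that opens the isoleucine branch, differed by -0.17 ± 0.16. These last 3 genes did not pass with the block either.

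LEU4 and LEU9 encode isopropylmalate synthases, the entry into leucine synthesis. LEU4 was at 12.02, 11.59 and 11.47 in wild type and at 11.48, 11.24 and 11.19 in the deletion strain, so that its groups just overlapped. LEU9 was at 10.96, 10.68 and 10.53 in wild type and at 10.39, 10.36 and 9.99 in the deletion strain, and its groups did not overlap. Their differences of -0.39 ± 0.16 and -0.48 ± 0.15 passed only with the replicate block (adjusted p = 0.0139 and 0.00697), apart from LEU9 with centred arrays (0.0498). The LEU2 probe set, for a locus deleted in this background, was at 4.79, 4.37 and 4.55 in wild type and at 3.79, 3.49 and 3.65 in the deletion strain. These values are near background, and the signal fell by 0.93 ± 0.14 (adjusted p = 0.00485 in limma). What this signal measures was not tested.

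Among other genes of this pathway, OAC1, a mitochondrial carrier of oxaloacetate and isopropylmalate, fell by 0.94 ± 0.11 (adjusted p = 0.00163 in limma). BAT1, the mitochondrial branched-chain aminotransferase, fell by 0.61 ± 0.16 (adjusted p = 0.0495). The BAT1 call was lost without any 1 array other than wild type replicate 3, with adjusted p of 0.0710 to 0.142. BAT2, the cytosolic aminotransferase, differed by 0.34 ± 0.13 in the other direction and passed only with the block (0.0185). The transcript of LEU3, the pathway's activator, differed by -0.03 ± 0.12.

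ARG1 and ARG3 of arginine synthesis had the largest differences of the list and the widest spread between wild type arrays, while the median of the pathway was -0.26 and 0 of its 7 measured genes passed. At an unadjusted limma p under 0.05, 3 were lower and 0 higher, beside 15.5% and 13.4% of all genes. With the replicate block 3 fell, where 16.4% of all genes did. ARG1 (YOL058W), the argininosuccinate synthetase, was at 11.96, 11.43 and 10.48 in wild type and at 10.80, 10.25 and 9.92 in the deletion strain. The groups overlapped, since wild type replicate 3 lay below vps1 deletion replicate 1. Its difference was -0.97 ± 0.38 (adjusted p = 0.138 in limma). Within same-numbered arrays ARG1 differed by -1.16, -1.18 and -0.56, and with the replicate block it fell (adjusted p = 0.00243).

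ARG3 (YJL088W), the ornithine carbamoyltransferase, was at 9.37, 8.33 and 7.90 in wild type and at 7.74, 7.44 and 7.57 in the deletion strain. Its wild type SD of 0.75 was the highest of the 50 genes, and its difference of -0.95 ± 0.33 passed with the block (adjusted p = 0.0167). ARG4, the argininosuccinate lyase, differed by -0.59 ± 0.19 and also passed with the block (0.00321). All of ARG1, ARG3 and ARG4, which carry ornithine on to arginine, passed without wild type replicate 3 (adjusted p = 0.0327, 0.0447 and 0.0309 in limma). That was the lowest wild type array of each of these genes. Without any other single array none of them passed, at adjusted p of 0.132 to 0.352, 0.0593 to 0.237 and 0.104 to 0.252 in limma. The genes of ornithine synthesis in the mitochondrion differed less. ARG2, the acetylglutamate synthase, differed by -0.13 ± 0.10, ARG8, the aminotransferase, by -0.19 ± 0.12, and ARG7, the ornithine acetyltransferase, by 0.28 ± 0.16. CPA1, the small subunit of the carbamoyl phosphate synthetase, differed by -0.26 ± 0.13, and none of these 4 passed with the block. Of the arginine regulators and the ornithine carrier, ARG80, ARG81, ARG82 and ORT1, 0 of 4 passed with or without it, and 0 had an unadjusted limma p under 0.05.

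In the aromatic pathway up to chorismate, with the mutase that follows it, all 5 genes lay below wild type, with a median of -0.32, while all 5 lay above it as deposited. ARO1 (YDR127W), a large enzyme that carries out most steps to chorismate, was at 11.89, 11.86 and 11.66 in wild type and at 11.49, 11.41 and 11.28 in the deletion strain. It fell by 0.41 ± 0.11 (adjusted p = 0.0454 in limma), and lay 0.11 above wild type on the deposited values. The call held without wild type replicate 3, but not without wild type replicate 1 or 2 (0.0791 and 0.146), without vps1 deletion replicate 1, 2 or 3 (0.0897, 0.101 and 0.162) or with limma's trended robust spread (0.0516). ARO2, the chorismate synthase, differed by -0.32 ± 0.13 and passed with the block (0.0267). ARO7, the chorismate mutase toward phenylalanine and tyrosine, differed by -0.15 ± 0.09, with groups that did not overlap.

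ARO3 and ARO4 encode the entry enzymes of the pathway, inhibited by phenylalanine and by tyrosine. ARO3 was at 11.90, 11.53 and 11.19 in wild type and at 11.65, 11.35 and 11.29 in the deletion strain, which makes a difference of -0.11 ± 0.19. ARO4 was at 11.82, 11.54 and 11.39 in wild type and at 11.53, 11.06 and 11.18 in the deletion strain, which makes a difference of -0.33 ± 0.16 that passed with the block (adjusted p = 0.0267). Both sets of arrays overlapped between strains. Of the 4 measured tryptophan genes 0 fell in limma, and 1, TRP4, was lower at an unadjusted p under 0.05 and fell with the block. Of all genes 15.5% were lower at that unadjusted p and 16.4% fell with the block. TRP4, the anthranilate phosphoribosyltransferase, was at 10.30, 10.29 and 10.11 in wild type and at 10.02, 9.95 and 9.83 in the deletion strain. The groups did not overlap, and its difference was -0.30 ± 0.10 (adjusted p = 0.0905 in limma, 0.0215 with the block). TRP2 and TRP3, the subunits of anthranilate synthase, differed by -0.18 ± 0.16 and -0.14 ± 0.14, and TRP5, the tryptophan synthase, by -0.03 ± 0.11.

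Of the other aromatic genes, ARO9, an aromatic aminotransferase known for its part in amino acid breakdown, rose by 1.19 ± 0.18 (adjusted p = 0.00590 in limma). It was at 5.92, 5.65 and 5.86 in wild type and at 6.61, 7.09 and 7.31 in the deletion strain, well apart. Its related aminotransferase ARO8 differed by -0.09 ± 0.14. TYR1 and PHA2, which lead from prephenate to tyrosine and phenylalanine, differed by 0.20 ± 0.12 and -0.15 ± 0.15.

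**Figure D3:**
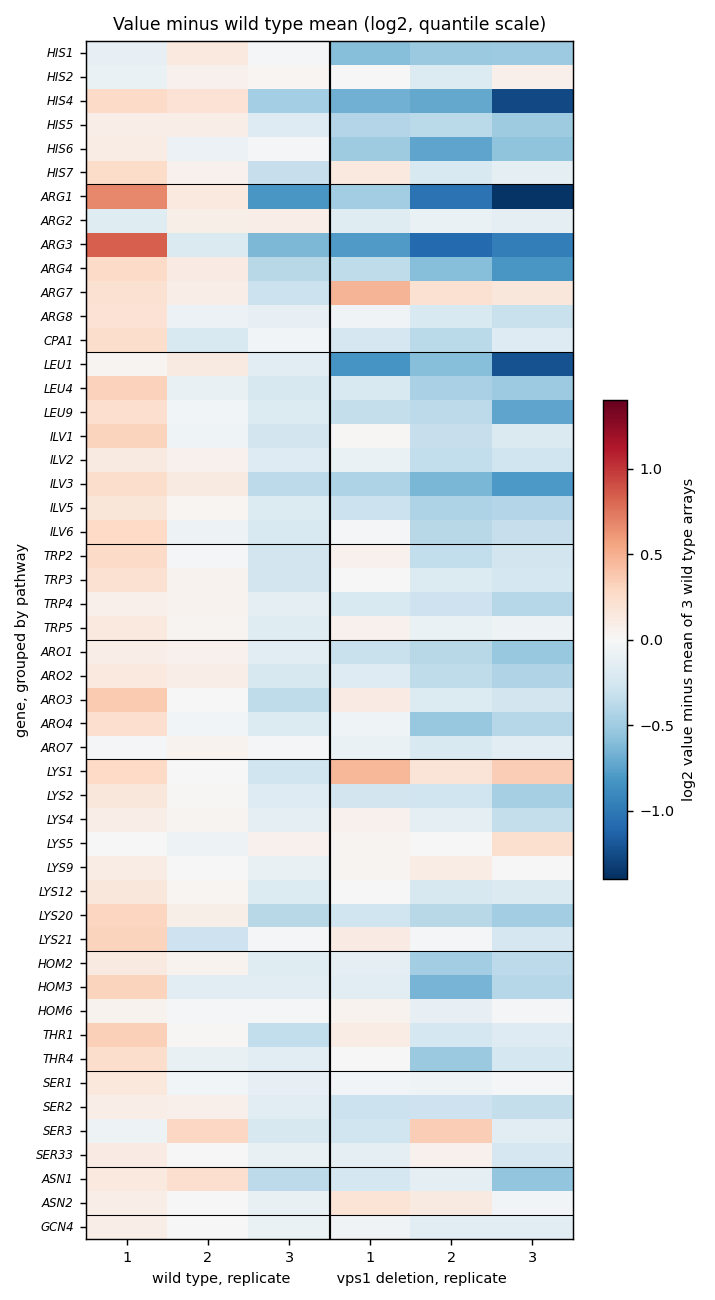
Log2 value of each of the 50 genes on each of the 6 arrays minus the mean of the 3 wild type arrays (colour, quantile scale), with genes grouped by pathway. The deletion columns are mostly blue, ARG7 and LYS1 are red there, and in both strains the replicate 1 column is the least blue or most red for most genes.

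Lysine synthesis had a median difference of -0.09 over its 8 genes, 3 of them above wild type. In limma 0 passed, with 1 lower and 0 higher at an unadjusted p under 0.05, and 2 fell with the block. Of all genes 15.5% were lower and 13.4% higher at that unadjusted p, and 16.4% fell with the block. The entry enzymes, the homocitrate synthases, are LYS20 and LYS21. LYS20 (YDL182W) was at 11.14, 10.92 and 10.45 in wild type and at 10.56, 10.45 and 10.36 in the deletion strain, and LYS21 at 10.80, 10.20 and 10.46 and at 10.60, 10.47 and 10.25. LYS20 differed by -0.38 ± 0.17 and passed in 2 alternatives, the block (adjusted p = 0.0352) and the fit that left out wild type replicate 3 (0.0354 in limma), while LYS21 differed by -0.04 ± 0.17. LYS2, the aminoadipate reductase, differed by -0.33 ± 0.12 with groups that did not overlap, and passed with the block (0.0180). LYS5, which activates the Lys2 enzyme, differed by 0.09 ± 0.10.

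LYS4, the homoaconitase and an iron-sulphur enzyme, and LYS12, the homoisocitrate dehydrogenase, both differed by -0.14, with SE of 0.13 and 0.12. The saccharopine dehydrogenases of the last steps were LYS9, which differed by 0.05 ± 0.09, and LYS1. LYS1 was at 8.87, 8.58 and 8.31 in wild type and at 9.05, 8.77 and 8.93 in the deletion strain. Its difference of 0.33 ± 0.15 was the highest of the list and did not pass (adjusted p = 0.206 in limma, 0.0545 with the block). LYS14, the activator of the lysine genes, and the oxodicarboxylate carriers ODC1 and ODC2 did not pass either.

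In the aspartate to threonine branch 0 of 5 genes passed, with 1 lower at an unadjusted limma p under 0.05, beside 15.5% of all genes. All 5 lay below wild type at a median of -0.25, though above it as deposited. HOM3 (YER052C), the aspartate kinase that opens the branch, was at 11.64, 11.18 and 11.16 in wild type and at 11.18, 10.68 and 10.93 in the deletion strain. HOM3 differed by -0.40 ± 0.17 and HOM2, the semialdehyde dehydrogenase, by -0.33 ± 0.13, and both passed with the block (adjusted p = 0.0140 and 0.0350). They were the 2 of the 5 genes that did, where 16.4% of all genes fell with the block. HOM6, the homoserine dehydrogenase, differed by -0.03 ± 0.09, THR1, the homoserine kinase, by -0.11 ± 0.18, and THR4, the threonine synthase, by -0.25 ± 0.16. Of the aspartate aminotransferases, which supply the branch, AAT1 differed by -0.31 ± 0.13 and passed with the block (0.0275) and with centred arrays (0.0471), and AAT2 differed by -0.22 ± 0.17.

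Serine synthesis, which branches from glycolysis, had a median of -0.07 over 4 genes. In limma 0 passed, and 1, SER2, was lower at an unadjusted p under 0.05, as were 15.5% of all genes. SER2 (YGR208W), the phosphoserine phosphatase of the last step, was at 10.72, 10.70 and 10.47 in wild type and at 10.33, 10.34 and 10.30 in the deletion strain. Its groups did not overlap, and the difference of -0.31 ± 0.10 passed with the block (adjusted p = 0.0303) and not without it (0.0898 in limma). With the block 16.4% of all genes fell. SER3, a phosphoglycerate dehydrogenase, was at 9.10, 9.47 and 8.95 in wild type and at 8.89, 9.51 and 9.01 in the deletion strain, and its isozyme SER33 at 10.66, 10.54 and 10.45 and at 10.42, 10.61 and 10.32. SER3, SER33 and the aminotransferase SER1 differed by -0.03 ± 0.20, -0.10 ± 0.11 and -0.04 ± 0.10.

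The asparagine synthetases ASN1 and ASN2 lay on opposite sides of wild type on the quantile scale, but both above it as deposited (0.23 and 0.61) and both below it with centred arrays (-0.43 and -0.049). In limma 0 passed, also at an unadjusted p under 0.05. With the block 1 of the 2 fell, where 16.4% of all genes did. ASN1 (YPR145W) was at 12.43, 12.53 and 11.93 in wild type and at 12.05, 12.17 and 11.74 in the deletion strain, and its difference of -0.31 ± 0.18 passed with the block (adjusted p = 0.0269). ASN2 was at 12.34, 12.26 and 12.15 in wild type and at 12.44, 12.37 and 12.21 in the deletion strain, which makes a difference of 0.09 ± 0.10. For the 5 isozyme pairs of the list, the change of the ratio within arrays is given with its SE over arrays and no test, since 3 against 3 arrays cannot give an exact permutation p under 0.1. The difference of ASN1 lay 0.40 ± 0.17 below that of ASN2, and the same-numbered arrays gave -0.48, -0.47 and -0.25. ARO3 minus ARO4 was 0.22 ± 0.10, with 0.05, 0.30 and 0.31 in the 3 pairs. These 2 of the 5 ratios thus moved one way in every pair. Among all single genes 35.2% were lower and 25.4% higher in every pair, so such a run is common for single genes. The share for ratios of 2 genes was not computed. LYS20 minus LYS21 was -0.34 ± 0.22, LEU4 minus LEU9 was 0.09 ± 0.10 and SER3 minus SER33 was 0.07 ± 0.20, each of mixed sign over the pairs.

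GCN4 (YEL009C), the shared activator, was at 13.29, 13.20 and 13.10 in wild type and at 13.14, 13.05 and 13.05 in the deletion strain. The groups overlapped by 1 array, and its difference of -0.11 ± 0.09 did not pass (adjusted p = 0.476 in limma, 0.294 with the block). Of 14 other genes of the Gcn4 control circuit, 1 fell and 0 rose, and 2 fell and 2 rose with the block. The 1 is 7.14% of the 14, beside 6.28% of all genes, and the 2 each way are 14.3%, beside 16.4% and 14.4%, so these counts are near those of all genes. GCD2, a subunit of eIF2B, fell by 0.48 ± 0.10 (adjusted p = 0.0217 in limma), and its deposited values lay 0.061 above wild type. The GCD2 call did not hold without wild type replicate 2 (0.0793) or without vps1 deletion replicate 1 or 3 (0.0939 and 0.0890). The kinase gene GCN2 and its partner GCN1 differed by -0.20 ± 0.10 and -0.15 ± 0.11. YIH1, an inhibitor of Gcn2, differed by -0.30 ± 0.15 (0.0453 with the block). PCL5, a cyclin for the breakdown of Gcn4, and MBF1, its coactivator, differed by 0.43 ± 0.19 and 0.29 ± 0.11, and passed with the block (adjusted p = 0.0147 and 0.0358). PCL5 passed also without wild type replicate 1 (0.0399 in limma).

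Over all 35 measured genes fixed as other genes of these pathways, proline synthesis included, 3 fell and 1 rose, the 4 given above. These are 8.57% and 2.86%, where 6.28% of all genes were called lower and 6.77% higher. Their median difference was -0.14, between those of the listed genes and of all genes. PRO1, PRO2 and PRO3 of proline synthesis differed by -0.24 ± 0.12, -0.07 ± 0.15 and -0.11 ± 0.13.

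**Figure D4:**
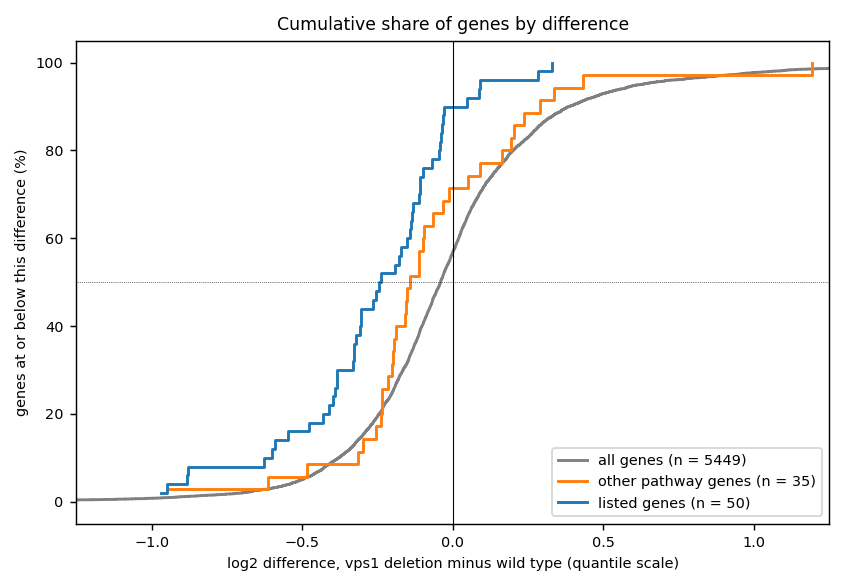
Share of genes (y axis, percent) at or below each log2 difference (x axis, vps1 deletion minus wild type, quantile scale) for the 50 listed genes, the 35 other pathway genes and all 5449 genes. The curve of the listed genes crosses the middle at -0.24 and that of all genes at -0.04, and the listed genes end at 0.33.

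The listed genes had their highest values on replicate 1 in both strains for the most part. Their median level on replicates 1, 2 and 3 was 11.61, 11.37 and 11.18 in wild type and 11.12, 10.99 and 10.81 in the deletion strain. The wild type arrays thus differed among themselves by more than the size of the median strain difference, -0.24. In wild type 41 of the 50 were highest on replicate 1 (82.0%, where 44.7% of all genes were), and 43 were lowest on replicate 3 (86.0%, against 36.5%). In the deletion strain 37 were highest on replicate 1 (74.0%, against 34.3%), while the lowest array was replicate 3 for 25 and replicate 2 for 22, against 30.6% and 37.8% of all genes. The median SD over 3 arrays was 0.19 for the listed genes and 0.15 for all genes in wild type, and 0.14 and 0.13 in the deletion strain. Between same-numbered arrays, deviations from the strain means had correlations of 0.70, 0.55 and 0.59 over the 50 genes, and of 0.67, 0.65 and 0.29 over all genes. Genes of a pathway are not independent of each other, so these correlations only describe the arrays.

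Compared within same-numbered arrays, 43, 42 and 35 of the 50 genes were lower in the deletion strain in pair 1, 2 and 3, at medians of -0.25, -0.30 and -0.16. The median of all genes was between -0.05 and -0.03 in the 3 pairs. In all 3 pairs 32 listed genes were lower, or 64.0%, beside 35.2% of all genes. These were 7 of 8 branched-chain genes, 5 of 7 arginine genes, 4 of 6 histidine genes, 4 of 5 chorismate genes, 4 of 8 lysine genes, 3 of 5 threonine genes, 2 of 4 tryptophan genes, 1 of 4 serine genes, ASN1 and GCN4. The genes higher in all 3 pairs were ARG7, LYS1, LYS5 and ASN2, 8.0% of the listed genes beside 25.4% of all genes. The groups of 3 arrays did not overlap for 14 genes, all lower in the deletion strain, or 28%, where 19% of all genes were lower without overlap. No listed gene was higher without overlap, where 15% of all genes were.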

How the data were processed

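The deposited values are log2 numbers, 1 per probe set and array, for 10928 probe sets on 6 Affymetrix arrays, made by the authors from biotin-labelled cRNA of 100 ng total RNA, per the labels' protocols. GCOS, RMA and limma are the tools that the submitters' processing notes list, and the sources used here give no version, role or scaling step. For arrays, their number limits the precision.

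All probe sets were quantile normalized over the 6 arrays. Through gene IDs of the platform annotation and the RefSeq R64 table, 5498 probe sets were named, and the one with the highest mean stood for each of 5449 genes. Background was the 95th percentile of 1746 probe sets named for genes outside that table. limma 3.58.1 in R 4.3.3 (lmFit, eBayes) compared 3 with 3 arrays, 2-sided, with Benjamini-Hochberg adjustment over all genes. The ± of a difference is limma's SE. The test was checked on simulated data, with noise drawn independently for each gene and array. That setting lacks the deviations that genes and same-numbered arrays share here, so it says nothing about them.

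The replicate numbers in the labels were taken to pair the arrays, because deviations correlated above 0.1 in every pair. That bar does not set pairs apart, since wild type replicate 3 and vps1 deletion replicate 2 had 0.23, beside 0.29 in pair 3. Other differently numbered arrays had -0.63 to 0.06 over all genes. The pairing thus rests on these same data, and calls made only with the block depend on it. Values on each array are given for GCN4, each listed gene past the threshold, the largest difference of each pathway, the isozyme pairs and the 2 markers. Values on each array of ILV3, ARG3, LYS1 and ARO9 were added after their values were seen, as were the differences of the remaining listed genes and of other pathway genes that did not pass. The members and lists were chosen with earlier results of these data known.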

Additional observations from a re-analysis of the deposited data

How the results depend on the processing

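The count of 6 listed genes that fell was the same with quantile normalization over yeast genes only, without genes below background, with the mean of a gene's probe sets and with limma's trended robust spread, though in the last ILV5 replaced ARO1. It became 22 with the replicate block, 0 on the deposited values, where 20 were higher, and 1 to 12 without 1 array. The median of -0.24 became 0.29 as deposited and -0.37 with centred arrays. Over all genes, 342 were lower and 369 higher, 892 and 784 with the replicate block, 52 and 4142 as deposited, and 123 to 355 and 199 to 432 without 1 array. In this balanced design the block leaves each difference as it is and changes its error alone.

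As deposited, genes below wild type on the quantile scale lay above it by these log2 values: HIS1 0.011, HIS2 0.50, HIS5 0.11, HIS7 0.48, HIS3 0.38, ARG2 0.43, ARG8 0.35, CPA1 0.27, LEU4 0.13, LEU9 0.067, ILV1 0.34, ILV2 0.29, ILV5 0.19, ILV6 0.28, TRP2 0.36, TRP3 0.39, TRP4 0.24, TRP5 0.49, ARO1 0.11, ARO2 0.21, ARO3 0.40, ARO4 0.20, ARO7 0.39, LYS2 0.21, LYS4 0.40, LYS12 0.39, LYS20 0.16, LYS21 0.49, HOM2 0.19, HOM3 0.13, HOM6 0.51, THR1 0.43, THR4 0.28, SER1 0.48, SER2 0.24, SER3 0.52, SER33 0.45, ASN1 0.23, GCN4 0.44, AAT1 0.23, AAT2 0.31, LEU3 0.51, ARO8 0.43, PHA2 0.41, GCN1 0.39, GCN2 0.36, YIH1 0.25, GCD2 0.061, PRO1 0.30, PRO2 0.46 and PRO3 0.41. Other pathway genes not given a difference above changed sides in the same way. They lay above wild type by ARG81 0.36, ARG82 0.41, LYS14 0.36, ODC2 0.29, GCN20 0.34, GCN3 0.44, SUI2 0.52, GCD1 0.40, GCD6 0.43, GCD7 0.31 and PHO85 0.35. All of these values lie at or under the median shift of all genes, 0.51, but for HOM6, SER3, LEU3 and SUI2. With centred arrays LYS5, LYS9 and ASN2 lay below wild type, at -0.038, -0.089 and -0.049, and so did GLY1 of the other pathway genes, at -0.083. Differences near 0 took either sign when 1 array was left out: HIS2 from -0.095 to 0.038, HIS7 from -0.23 to 0.060, TRP5 from -0.12 to 0.035, ARO3 from -0.29 to 0.071, LYS9 from -0.0040 to 0.10, LYS21 from -0.19 to 0.11, HOM6 from -0.066 to 0.012, THR1 from -0.28 to 0.055, SER1 from -0.096 to 0.031, SER3 from -0.22 to 0.11, LEU3 from -0.12 to 0.046, ARO8 from -0.20 to 0.011 and PRO2 from -0.19 to 0.057. Of the other pathway genes not given a difference above, ORT1 ran from -0.0064 to 0.27, GLY1 from -0.019 to 0.13 and SUI2 from -0.11 to 0.15. The cause of these changes was not tested. The search of promoters for the Gcn4 motif was not run, as no promoter sequence was used here.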
